A study of Homo sapiens with 6 samples.

Results

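The protocadherin gamma genes and PCDHAC2 were described in AsPC-1 cells, an established human pancreatic ductal adenocarcinoma line. RNA was sequenced from 3 samples given a lentivirus with a short hairpin RNA (sh) that targets TMPRSS4, which encodes a serine protease of the cell membrane, and from 3 samples given a control lentivirus. The groups are called shTMPRSS4 and control. Both groups are AsPC-1 cells that received a lentivirus, and the labels give neither the time after transduction nor whether the replicates were separate cultures, or whether cells were pooled or cloned. The members are the rows of the authors' deposited table whose symbol starts with PCDHG, plus PCDHAC2. They are 10 of 753 genes, namely PCDHGA4, PCDHGA5, PCDHGA6, PCDHGA7, PCDHGA9, PCDHGA12, PCDHGB2, PCDHGB3, PCDHGB6 and PCDHAC2. Each row of that table was selected by the authors on the difference between the groups (a log2 fold change of 1 or more in either direction, with a false discovery rate, FDR, under 0.05). The differences between shTMPRSS4 and control below are therefore a description of selected genes, and no test is given. The members nearest to the limits in the authors' deposited table were PCDHAC2, with a log2 fold change of -1.09, and PCDHGA9, with an FDR of 0.0287. The genes just outside the limits were not analysed here.

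Clustered protocadherins are cadherin-family adhesion proteins of the cell surface, encoded in the alpha, beta and gamma clusters that lie side by side on chromosome 5. They are best known in neurons, where each cell uses a few isoforms that bind the same isoform on a neighbouring cell and so give the cell a surface identity. In the alpha and gamma clusters each gene has its own promoter and its own large exon for the extracellular and membrane-spanning part, which is spliced to 3 constant exons that all genes of that cluster share and that encode a common cytoplasmic tail. The gamma genes fall into the A, B and C subfamilies by the sequence of their own exon. PCDHAC2 is the last gene of the alpha cluster and of the C type. Its mouse counterpart is known for the spacing of serotonergic axons. Most but not all promoters of the clusters carry a conserved element with the core CGCT, which CTCF binds. Together with cohesin, CTCF brings a promoter to distant enhancers.

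The shared exons matter for every count below, so the joins are shown. Each line gives the last 30 bases of the gene's own exon in lower case and the first 20 bases of the next, shared exon in capitals (GENCODE release 29 transcripts, GRCh38, chromosome 5, plus strand).
PCDHAC2: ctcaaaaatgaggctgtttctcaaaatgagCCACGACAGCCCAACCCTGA
PCDHGA4: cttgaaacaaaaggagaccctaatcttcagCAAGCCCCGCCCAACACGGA
PCDHGB2: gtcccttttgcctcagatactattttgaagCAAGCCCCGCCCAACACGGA
PCDHGA5: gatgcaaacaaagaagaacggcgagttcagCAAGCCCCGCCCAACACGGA
PCDHGB3: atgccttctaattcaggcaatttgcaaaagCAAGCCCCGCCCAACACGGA
PCDHGA6: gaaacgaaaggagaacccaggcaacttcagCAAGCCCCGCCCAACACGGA
PCDHGA7: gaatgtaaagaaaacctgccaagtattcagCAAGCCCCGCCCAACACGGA
PCDHGA9: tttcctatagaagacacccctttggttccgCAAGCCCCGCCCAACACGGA
PCDHGB6: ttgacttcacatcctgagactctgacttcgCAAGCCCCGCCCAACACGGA
PCDHGA12: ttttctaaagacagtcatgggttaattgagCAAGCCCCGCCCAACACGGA
The capitals are the same in all 9 gamma genes and differ in PCDHAC2. The shared gamma exon that begins with them lies at chr5:141494807-141494865 and has 59 bases, and the matching exon of PCDHAC2, at chr5:140978949-140979007, is as long and alike at 39 of 59 positions. The whole constant part, 2181 bases with exons of 59, 89 and 2033 bases, was identical in the 9 gamma genes.

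Promoters were shown because each gene of these clusters is switched on from its own. Of the 10 genes 9 matched the RefSeq promoter table (GRCh38.p14, 250 bases before to 50 after each start), and PCDHGA12 was not in it. Each line gives 30 bases around the core CGCT, with the letters of the motif CGCTGTNNNNCA in capitals, or the core alone where the motif is not matched.
PCDHAC2, chr5:140966372-140966401: gtccgggttCGCTGTCCGCCActtcggcgc
PCDHGA4, chr5:141354967-141354996: tctgggtgtCGCTGTTCACCAatcaggggg
PCDHGB2, chr5:141359928-141359957: tctgagcgtCGCTGTTGGTCAaaagaacga
PCDHGA5, chr5:141364114-141364143: tctgagtgtCGCTGTTGACCAaagtgggaa
PCDHGB3, chr5:141370169-141370198: gccgggtgcCGCTcttggctagtgctgtgc
PCDHGA6, chr5:141373842-141373871: tctaagcgtCGCTGTTGACCAacctgggca
PCDHGA7, chr5:141382656-141382685: tcacagcgcCGCTGTTCACCAaccagggaa
PCDHGA9, chr5:141402721-141402750: tctgagcgcCGCTGTTGATCAactctaagc
PCDHGB6, chr5:141407931-141407960: tctgggcgcCGCTGTCGGCCAgtgcagagc
All are on the plus strand. The motif was read from these same promoters, as the commonest letters after the core, and both strands were then searched. It was found in 7 of 8 gamma members, in 7 of 12 other gamma genes and in PCDHAC2, against 0 of 14 beta genes, 5 of 12 other alpha genes and 0.952% of all 27305 genes with a promoter in the table. The 4-letter core alone was in 100% of the beta genes, of the gamma members and of the other gamma genes. It was in 91.7% of the other alpha genes and in 71.9% of all genes. The 0 of 14 beta genes thus concerns the longer motif only, whose letters came from the members. A match is a description of letters, and whether it marks the conserved element, in PCDHAC2 above all, was not tested. Gamma genes outside the deposited selection carried the motif as well. The core began between positions -199 (PCDHGB2) and -39 (PCDHGA5) from the RefSeq start, and for PCDHAC2 at -95, where GENCODE already places the gene's first exon.

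The depth recovered from the ratio of count to FPKM (fragments per kilobase of gene and 1000000 fragments) was 46800000 to 53300000 reads in the shTMPRSS4 libraries and 30200000 to 57200000 reads in the control libraries. The lowest depth was that of control replicate 3, the only library whose description has the code L3 in place of L4. TMPRSS4 and the 7 epithelial markers looked for were not analysed here, so neither the knockdown nor the labelled cell type was checked. All differences are set against recovered depth. Scaling by TMM or DESeq2 over the selected genes alone moved the median of all 753 genes by -1.18 or -1.16 on the log2 scale. Of these genes 73.7% were higher in shTMPRSS4, and such scaling sets them to little average change by construction. A direction that turned under it therefore does not decide between the scales. Recovered depth could not be checked against genes outside the selection.

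At recovered depth all 9 gamma genes were higher in shTMPRSS4 than in control cells and PCDHAC2 was lower, while under TMM or DESeq2 scaling over the selected genes 8 of the 9 stayed higher and PCDHGA4 turned to -0.0474 or -0.0282 on the log2 scale. Together the 9 gamma genes had 19.4 ± 1.03 CPM (counts per 1000000 reads of recovered depth) in shTMPRSS4 libraries and 5.99 ± 0.423 in control libraries (SD, n = 3 each), 3.24-fold more. PCDHAC2 had 5.02 ± 0.239 CPM in shTMPRSS4 libraries and 10.7 ± 2.53 in control libraries, 2.12-fold fewer. By library, the gamma sum was 19.8, 18.2 and 20.2 CPM in shTMPRSS4 replicates 1, 2 and 3, against 5.73, 6.48 and 5.76 in control replicates 1, 2 and 3. PCDHAC2 had 5.29, 4.82 and 4.96 CPM in shTMPRSS4 libraries, against 12.1, 7.74 and 12.2 in control libraries. Neither measure overlapped between the groups. In bulk RNA, more cells with a transcript and more transcript per cell cannot be told apart.

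**Figure D1:**
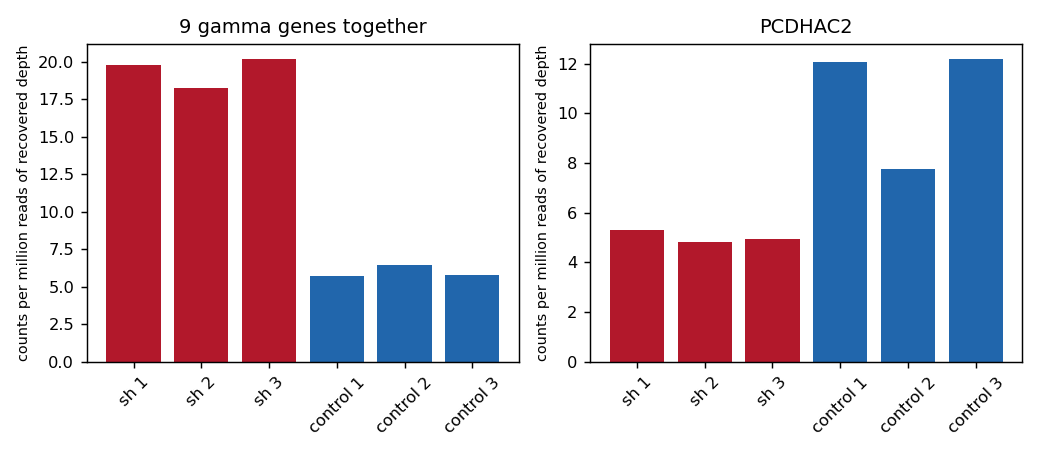
CPM (counts scaled to 1000000 reads of recovered depth) in each library, for the 9 gamma genes summed (left) and for PCDHAC2 (right), with shTMPRSS4 libraries in red and control libraries in blue. The gamma sum lies between 18.2 and 20.2 in shTMPRSS4 and between 5.73 and 6.48 in control libraries, while PCDHAC2 lies between 4.82 and 5.29 in shTMPRSS4 and between 7.74 and 12.2 in control libraries.

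Within each library PCDHAC2 can be set against the gamma genes directly. In shTMPRSS4 libraries it gave fewer counts than the 9 gamma genes together, and in control libraries more. PCDHAC2 had 0.259 ± 0.0115 counts for each count of the 9 gamma genes in shTMPRSS4 libraries and 1.81 ± 0.529 in control libraries (SD, n = 3 each). This ratio does not depend on depth or scaling. Its direction followed from the selection, since PCDHAC2 was listed as lower and the gamma genes as higher in shTMPRSS4. It also depends on how reads of the shared exons were given to genes. Control replicate 2 had 1.20 and the other control libraries 2.11 each, against 0.246 to 0.267 in shTMPRSS4 libraries.

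In the background of the deposited table, 73.7% of the 753 genes were higher in shTMPRSS4 and 26.3% lower. FPKM values of the groups did not overlap for any of the 10 members. Over the whole table, 97.7% of genes had no overlap (72.8% as higher and 25% as lower genes), and nothing is read from the members' count. Under TMM and DESeq2 scaling over the selected genes 5 of the 10 members had no overlap in each case (PCDHAC2, PCDHGB3, PCDHGA7, PCDHGB6 and PCDHGA12), against 59.6% and 60% of all 753 genes. The median log2 difference of the 9 gamma genes was 1.69 (range 1.14 to 4.31), next to 1.65 over all 555 higher genes of the table and 1.34 over all 753. The gamma genes stood lower in level than the table as a whole, with a median of 0.387 FPKM over the 6 libraries against 1.10 FPKM.

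The 6 gamma A genes encode A-type gamma isoforms, whose adhesive parts resemble each other closely. PCDHGA4 (ENSG00000262576, chromosome 5, 141355025 to 141512979) had 0.86, 0.68 and 0.62 FPKM in shTMPRSS4 replicates 1, 2 and 3, against 0.27, 0.33 and 0.38 FPKM in control replicates 1, 2 and 3. Its lowest shTMPRSS4 library stood 1.63 times above its highest control library, and its log2 difference of 1.14 ± 0.21 (SE) was the smallest of the gamma genes. PCDHGA5 (ENSG00000253485, 141364232 to 141512979) had 0.66, 0.69 and 0.84 FPKM in shTMPRSS4 libraries, against 0.22, 0.31 and 0.22 FPKM in control libraries. The values within each group were close together, and the log2 difference was 1.54 ± 0.19. PCDHGA6 (ENSG00000253731, 141373914 to 141512979) had 0.81, 0.74 and 0.66 FPKM in shTMPRSS4 libraries, against 0.14, 0.17 and 0.31 FPKM in control libraries. Control replicate 3 was the highest of its group here, and the log2 difference was 1.91 ± 0.36.

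PCDHGA7 (ENSG00000253537, 141382739 to 141512979) had the lowest mean of the members in both groups, although PCDHGB6 was lower in shTMPRSS4 replicates 2 and 3. PCDHGA7 had 0.15, 0.21 and 0.24 FPKM in shTMPRSS4 libraries, against 0.01, 0.03 and 0 FPKM in control libraries. Those levels rest on 32, 41 and 44 counts in shTMPRSS4 libraries, against 2, 4 and 0 counts in control libraries. At the depth of control replicate 3 a count of 0 allows up to 0.0254 FPKM (3 counts). The summed counts per depth were 16.1 times higher in shTMPRSS4, with an exact 95% interval of 7.20 to 44.9 that covers counting error only. The mean log2 difference of 4.31 ± 1.01 was 19.9-fold with 0.5 added to each count, 37.0-fold with 0.1 added and 10.03-fold with 2 added. With 0.5 added it came to 10.6-fold without control replicate 3 and 34.5-fold without control replicate 2. PCDHGA7 was thus close to absent from the control libraries, and its fold varied with the library left out.

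PCDHGA9 (ENSG00000261934, 141402932 to 141512979) varied most between shTMPRSS4 replicates. It had 0.28, 0.24 and 0.62 FPKM in shTMPRSS4 libraries, against 0.08, 0.21 and 0.07 FPKM in control libraries. Its lowest shTMPRSS4 library was 1.14 times its highest control library, and the log2 difference of 1.63 ± 0.63 had a wide error. PCDHGA12 (ENSG00000253159, 141430589 to 141512979), the last of the A genes, had 0.46, 0.38 and 0.56 FPKM in shTMPRSS4 libraries, against 0.1, 0.14 and 0.09 FPKM in control libraries. The groups were well apart, by 2.71 times between the nearest libraries, and the log2 difference was 2.05 ± 0.24.

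The 3 gamma B genes encode B-type isoforms of the same cluster. PCDHGB2 (ENSG00000253910, 141360042 to 141512979) had 0.86, 0.71 and 0.82 FPKM in shTMPRSS4 libraries, against 0.45, 0.23 and 0.14 FPKM in control libraries. Its control libraries were spread widely while its shTMPRSS4 libraries were close, and the log2 difference was 1.69 ± 0.50. PCDHGB3 (ENSG00000262209, 141370264 to 141512979) had 0.48, 0.74 and 0.57 FPKM in shTMPRSS4 libraries, against 0.17, 0.16 and 0.2 FPKM in control libraries. Here the control libraries were close, and the log2 difference was 1.69 ± 0.20. PCDHGB6 (ENSG00000253305, 141408021 to 141512979) had 0.34, 0.17 and 0.17 FPKM in shTMPRSS4 libraries, against 0.03, 0.07 and 0 FPKM in control libraries. These are 84, 40 and 36 counts in shTMPRSS4 libraries, against 8, 12 and 0 counts in control libraries. The count of 0 in control replicate 3 allows up to 0.0215 FPKM. The summed counts per depth were 6.62 times higher in shTMPRSS4 (exact 95% interval 4.15 to 11.1, counting error only). The mean log2 difference of 3.60 ± 1.52 was 12.1-fold with 0.5 added to each count, 21.1-fold with 0.1 added and 7.15-fold with 2 added. With 0.5 added it came to 4.45-fold without control replicate 3 and 24.3-fold without control replicate 2.

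PCDHAC2 (ENSG00000243232, chromosome 5, 140966235 to 141012344), the alpha C-type gene, ran the other way. It had 1.18, 1.07 and 1.11 FPKM in shTMPRSS4 libraries, against 2.69, 1.73 and 2.71 FPKM in control libraries. Control replicate 2 was the lowest of its group and still 1.73 against at most 1.18 FPKM in shTMPRSS4 libraries. The log2 difference was -1.06 ± 0.22, a level 2.08-fold lower in shTMPRSS4, and it was larger (-2.24 and -2.23) under TMM and DESeq2 scaling over the selected genes. An antisense transcript, AC010223.1, overlaps 256 exon bases of PCDHAC2 in GENCODE. The protocols describe no step that keeps the strand, so reads of both may have been counted together. No gene outside the alpha and gamma clusters overlaps an exon of the 9 gamma members.

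**Figure D2:**
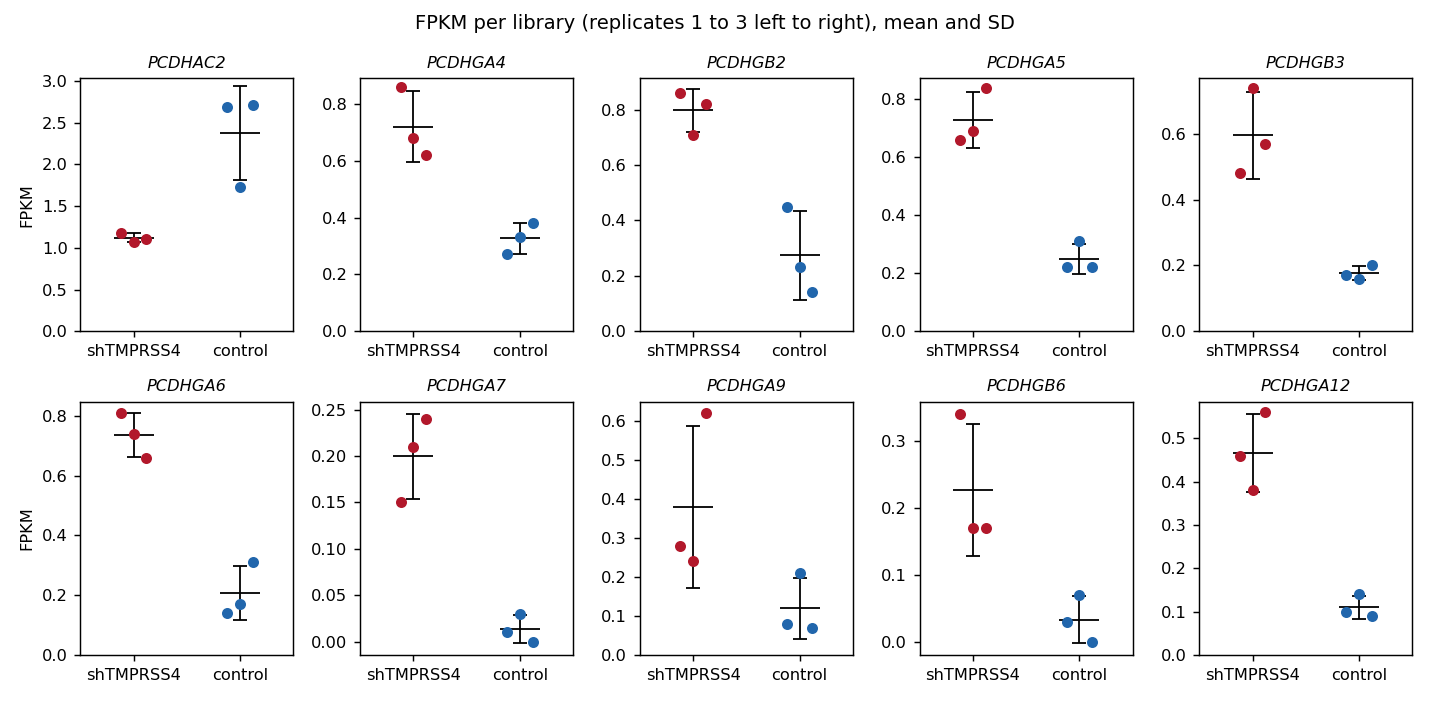
FPKM in each library for the 10 genes in chromosomal order, with shTMPRSS4 in red and control in blue, bars for mean and SD (n = 3) and a separate vertical scale for each gene. The groups do not overlap in any panel, the nearest being PCDHGA9 (0.24 in shTMPRSS4 against 0.21 FPKM in control), and PCDHAC2 is the one gene with lower FPKM in shTMPRSS4 (PCDHGA4 joined it under scaling over the selected genes alone).

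The order of levels was compared within each group, per length as FPKM. In shTMPRSS4 libraries PCDHAC2 was highest, with 1.12 ± 0.0557 FPKM (SD, n = 3). PCDHGB2, the highest gamma gene, had 0.797 ± 0.0777 FPKM there. PCDHGA6, PCDHGA5 and PCDHGA4 followed within 0.72 to 0.737 FPKM, a gap far inside their spread. PCDHGB3 (0.597 ± 0.132 FPKM) and PCDHGA12 (0.467 ± 0.0902 FPKM) stood in the middle. PCDHGA9 (0.38 ± 0.209 FPKM), PCDHGB6 (0.227 ± 0.0981 FPKM) and PCDHGA7 (0.2 ± 0.0458 FPKM) closed the order. On the deposited lengths only PCDHAC2 was apart from its next neighbour, since the ranges of all other neighbours overlapped. In control libraries PCDHAC2 was highest again, with 2.38 ± 0.560 FPKM, and PCDHGA4 was the highest gamma gene, with 0.327 ± 0.0551 FPKM. PCDHGB2 (0.273 ± 0.159 FPKM), PCDHGA5 (0.25 ± 0.0520 FPKM), PCDHGA6 (0.207 ± 0.0907 FPKM) and PCDHGB3 (0.177 ± 0.0208 FPKM) came next, with overlapping ranges. PCDHGA9 (0.12 ± 0.0781 FPKM) and PCDHGA12 (0.11 ± 0.0265 FPKM) were nearly level. PCDHGB6 (0.0333 ± 0.0351 FPKM) and PCDHGA7 (0.0133 ± 0.0153 FPKM) were lowest. On the deposited lengths PCDHAC2 was apart from PCDHGA4 there, and PCDHGA12 from PCDHGB6. The same 5 gamma genes (A4, A5, A6, B2 and B3) led in both groups, and PCDHGB6 and PCDHGA7 came last in both.

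Set out along the cluster, PCDHGA4, PCDHGB2, PCDHGA5, PCDHGB3, PCDHGA6 and PCDHGA7 are the gamma genes 5 to 10 of 22, with no other coding gamma gene between them. PCDHGA9 and PCDHGB6 are also next to each other, as genes 14 and 15, and PCDHGA12 is gene 19. The remaining 13 gamma genes, which include the C-type genes PCDHGC3, PCDHGC4 and PCDHGC5, were not analysed here. Levels were highest in the block that starts 24.5 to 43.3 kb from the start of PCDHGA1, where mean FPKM was between 0.597 and 0.797 in shTMPRSS4 and between 0.177 and 0.327 in control libraries. PCDHGA7, at 52.2 kb, directly follows that block and was far lower. The A and B genes alternate in that block. Over all gamma members, inside and outside the block, the A and B genes did not separate. Log2 differences ran from 1.14 to 4.31 (median 1.77) over the 6 A genes and from 1.69 to 3.60 (median 1.69) over the 3 B genes.

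**Figure D3:**
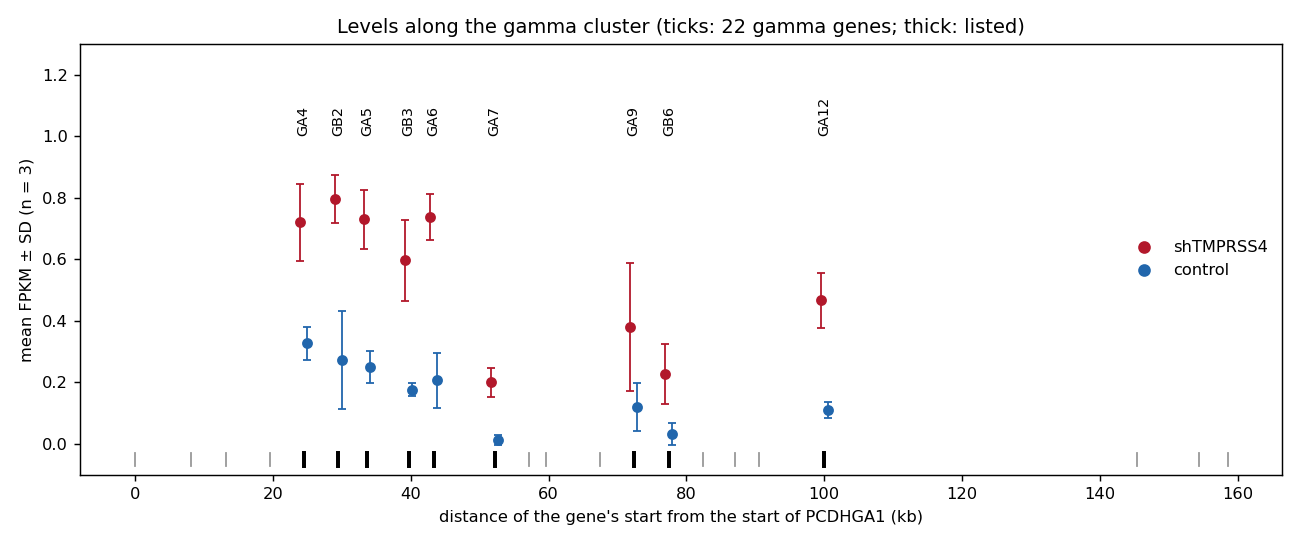
Mean FPKM ± SD (n = 3) of the 9 gamma genes in shTMPRSS4 (red) and control (blue) libraries against the distance of each gene's start from the start of PCDHGA1 in kb, with ticks for all 22 gamma genes. The 5 genes between 24.5 and 43.3 kb have the highest means in both groups, and PCDHGA7 at 52.2 kb the lowest.

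Each gene's share of the summed gamma counts was set out by library. PCDHGA6 gave 19.8% ± 2.45 of the counts of the 9 genes in shTMPRSS4 and 18.1% ± 8.73 in control libraries. PCDHGA5 gave 15.4% ± 1.72 in shTMPRSS4 and 17.0% ± 2.21 in control libraries. PCDHGB3 gave 11.1% ± 3.03 in shTMPRSS4 and 10.8% ± 1.76 in control libraries (SD, n = 3 each). These shares differed by less than the spread between replicates. Shares stood apart for PCDHGA4, with 11.5% to 16.3% in shTMPRSS4 and 17.4% to 24.7% in control libraries. They stood apart in the other direction for PCDHGA7, with 3.03% to 4.67% in shTMPRSS4 and 0% to 1.66% in control libraries. Ranges of the remaining genes overlapped. PCDHGB2 gave 14.7% ± 0.852 in shTMPRSS4 and 16.6% ± 10.4 in control libraries, and PCDHGA9 gave 6.91% ± 3.57 and 7.13% ± 3.90. PCDHGB6 gave 5.37% ± 2.25 in shTMPRSS4 and 2.47% ± 2.49 in control libraries, and PCDHGA12 gave 8.81% ± 1.25 and 6.78% ± 1.07.

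How reads of the shared exons were given to genes is not stated in the sources used here, and it bears on each value above. The 3 shared exons made up 45.6% to 47.4% of the 4-exon transcript of a gamma member and 48.1% of that of PCDHAC2. Every stretch of 31 bases in the shared gamma exons occurs in at least 21 other genes, and every such stretch of the shared alpha exons in at least 14. The genes' own exons were mostly distinct, since between 1.57% (PCDHGB3) and 15.8% (PCDHGA12) of their stretches of 31 bases occur in another gene. Between the own exons of different A genes 71.9% to 76.6% of aligned bases were identical, between those of B genes 70.7% to 72.6%, and between A and B genes 56.0% to 58.7%.

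Reads of the shared exons counted alike for every gamma gene could not exceed the lowest gamma count of a library. That lowest count was 32, 40 and 36 in shTMPRSS4 replicates 1, 2 and 3, against 2, 4 and 0 in control replicates 1, 2 and 3, while the highest count was 225, 194 and 161 in shTMPRSS4 and 93, 47 and 49 in control libraries. With that count taken off every gamma gene, 6 of the 7 genes that were not themselves the lowest stayed higher in shTMPRSS4, by 0.73 (PCDHGA4) to 1.69 (PCDHGA6) on the log2 scale, and PCDHGA9 came to -0.0797. This subtraction was chosen after seeing the data, and other ways of dividing shared reads were not tested.

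The length behind the deposited FPKM was recovered from count, FPKM and depth. For the 9 gamma genes it was 0.993 to 1.004 times the mean length of the gene's annotated transcripts, which are the 4-exon one and a 1-exon one. It was 5197 bases for PCDHGA6 and 3734 bases for PCDHGA4, although their 4-exon transcripts have 4775 and 4778 bases. This match is not a rule of the table, since 63 of 344 genes with more than 1 transcript and at least 200 counts (18.3%) had a recovered length within 2% of that mean. For PCDHAC2 the recovered length was 4487 bases, against a mean of 2452 bases over its 4 annotated transcripts. Divided by the 4-exon length, PCDHGA6 came to 0.802 FPKM and PCDHGB2 to 0.622 FPKM in shTMPRSS4 libraries, so these genes changed places in the order, while PCDHAC2 kept the highest mean (0.843 FPKM) and PCDHGA7 the lowest. PCDHAC2 was then no longer apart in shTMPRSS4 libraries, where it ran from 0.805 to 0.888 FPKM and PCDHGA6 from 0.718 to 0.882 FPKM. In control libraries PCDHAC2 stayed apart from PCDHGA4, and the ranges of PCDHGA12 and its neighbour PCDHGB6 came to 0.0699 to 0.109 FPKM and 0 to 0.0703 FPKM, which overlap. Divided by the length of the own exon alone, the same neighbours overlapped. Fold changes between the groups are not touched by the length.

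**Figure D4:**
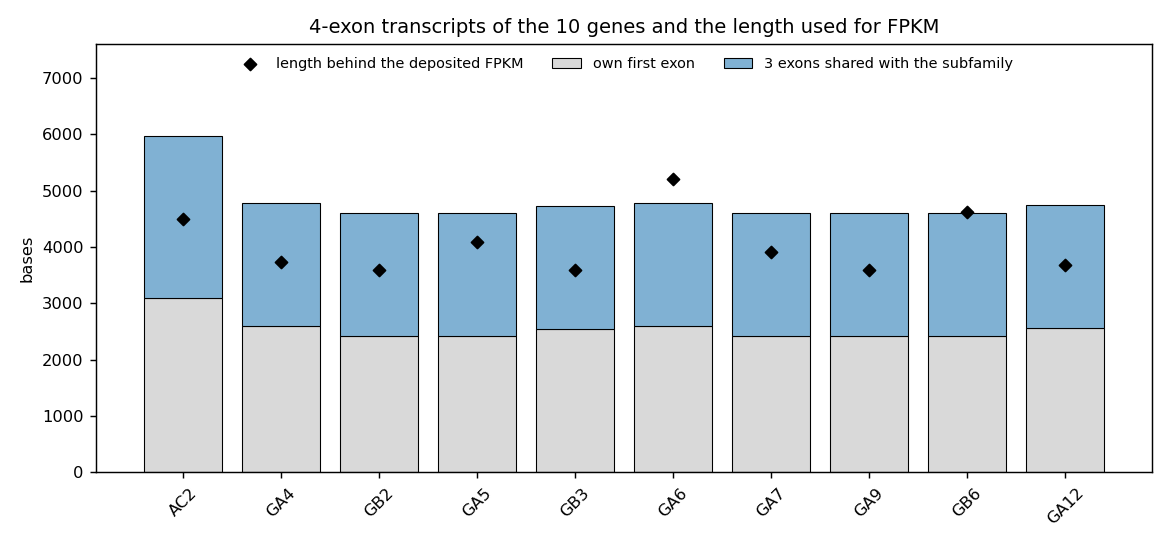
Bases in the 4-exon transcript of each gene, split into its own exon (grey) and the 3 shared exons (blue), with the length behind the deposited FPKM as a diamond. The shared part is 2181 bases in every gamma gene and 2866 in PCDHAC2, and the diamond of PCDHGA6 (5197 bases) lies above its 4-exon transcript.

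Other genes of the clusters and of their known biology were counted from lists. Among the beta genes, which lie between the alpha and gamma clusters and have no shared exons, 12 were in the deposited table and all 12 were higher in shTMPRSS4, with a median log2 difference of 1.42, although PCDHB2, PCDHB3 and PCDHB15 turned under TMM and DESeq2 scaling over the selected genes. The means of the listed beta genes ran from 0.293 to 6.96 FPKM in shTMPRSS4 and from 0.0367 to 3.30 FPKM in control libraries. Several were thus well above the gamma genes, whose means ended at 0.797 in shTMPRSS4 and 0.327 FPKM in control libraries. By lowest FDR in the authors' deposited table the leading beta genes were PCDHB16, PCDHB13, PCDHB11 and PCDHB12. PCDHB16 had 6.003 ± 0.397 FPKM in shTMPRSS4 and 1.74 ± 0.246 in control libraries. PCDHB13 had 3.86 ± 0.337 FPKM in shTMPRSS4 and 1.52 ± 0.101 in control libraries. PCDHB11 had 1.24 ± 0.172 FPKM in shTMPRSS4 and 0.247 ± 0.0153 in control libraries, a low and even level among its 3 control samples. PCDHB12 had 1.51 ± 0.250 FPKM in shTMPRSS4 and 0.243 ± 0.0777 in control libraries. None of the other alpha genes was among the rows analysed, so PCDHAC2 was the one alpha gene described.

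**Figure D5:**
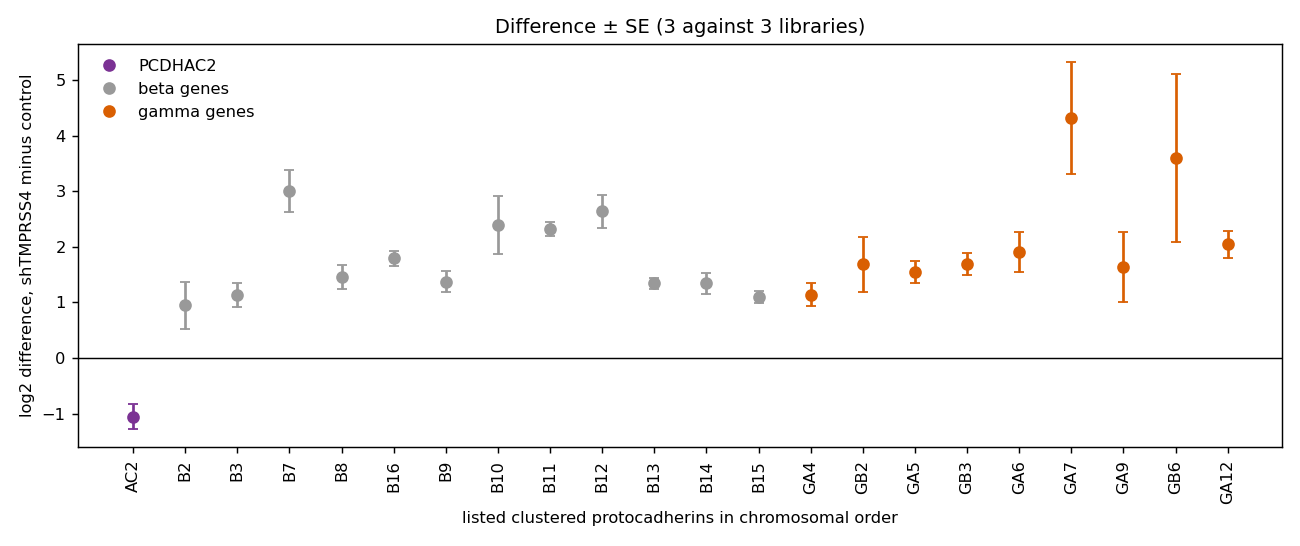
Log2 difference of shTMPRSS4 minus control ± SE (3 against 3 libraries, counts scaled by recovered depth) for the 22 listed clustered protocadherins in chromosomal order, with PCDHAC2 in purple, beta genes in grey and gamma genes in orange. PCDHAC2 is at -1.06 and every other gene above 0, while PCDHGA4, PCDHB2, PCDHB3 and PCDHB15 came below 0 under scaling over the selected genes alone, and the error bars of PCDHGA7 and PCDHGB6 are the widest.

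Within 1000000 bases of the members the table held 14 further genes, the 12 beta genes, IGIP and GNPDA1. GNPDA1, a glucosamine-6-phosphate deaminase gene beyond the gamma end, had 27.9 ± 1.58 FPKM in shTMPRSS4 and 92.5 ± 3.53 in control libraries. IGIP, beyond the alpha end, had 0.857 ± 0.104 FPKM in shTMPRSS4 and 0.383 ± 0.110 in control libraries. At recovered depth GNPDA1 was thus lower and IGIP higher, although the log2 difference of IGIP came to 0.01 with TMM scaling.

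Of 28 regulators of the clusters (CTCF, cohesin and its loaders, DNA and histone methylation enzymes and others) 1 was in the table. It was TET1, a dioxygenase that removes DNA methylation, with 0.177 ± 0.0153 FPKM in shTMPRSS4 and 0.0767 ± 0.00577 in control libraries. Its log2 difference of 1.19 ± 0.09 came to 0.01 under TMM scaling over the selected genes. Of 23 partners and effectors 1 was in the table, PTK2B, which encodes PYK2, a kinase that gamma protocadherins restrain in mouse neurons. PTK2B had 7.04 ± 0.313 FPKM in shTMPRSS4 and 17.1 ± 0.974 in control libraries, a log2 difference of -1.28 ± 0.06. Of 18 protocadherins and related genes outside the clusters, CDHR5 and CDHR2, adhesion proteins of intestinal microvilli, were listed. CDHR5 had 7.71 ± 0.200 FPKM in shTMPRSS4 and 3.44 ± 0.325 in control libraries, and its direction turned under scaling over the selected genes. CDHR2 had 0.13 ± 0.0361 FPKM in shTMPRSS4 and 0.0267 ± 0.0208 in control libraries. No cadherin with a CDH number and none of 19 desmosomal, FAT, dachsous, CELSR and calsyntenin genes was among the rows analysed.

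Because clustered protocadherins are best known in neurons, 12 neuron markers were looked for. TUBB3 and MAP2 were listed, and their summed level was 86.8 to 91.3 FPKM in shTMPRSS4 and 39.2 to 42.3 FPKM in control libraries. TUBB3, a tubulin also found in carcinoma cells, gave 88.0 ± 2.26 FPKM in shTMPRSS4 and 40.0 ± 1.43 in control libraries. MAP2, a microtubule protein of dendrites, had 1.14 ± 0.176 FPKM in shTMPRSS4 and 0.557 ± 0.205 in control libraries. Both turned under scaling over the selected genes. The other 10 neuron markers were not analysed here. No fibroblast marker of 6 was listed, and of 3 endothelial markers PECAM1 was listed and lower, with 0.197 ± 0.0451 FPKM in shTMPRSS4 and 0.523 ± 0.140 in control libraries. The part of these markers in the protocadherin differences was not tested.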

How the data were processed

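RNA of AsPC-1 cells was measured in 3 shTMPRSS4 and 3 control samples, grouped by their titles. Per the labels' protocols, RNA was enriched with oligo(dT) beads and sequenced on an Illumina HiSeq instrument. Per the submitters' processing notes, Bowtie 0.12.2 was used with mm 8 and mm 9, which are mouse builds, although all identifiers are human, so the reference stays uncertain. Neither the counting tool nor the annotation is stated in the sources used. Per the file headers, the authors deposited whole-number counts, FPKM (rounded to 2 decimals), and their own mean FPKM, log2 fold change, p-value and FDR, whose test is not named.

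Depth relative to control replicate 1 was the median ratio of count to FPKM over 159 genes with at least 200 counts, and absolute depth came from genes with 1 transcript in GENCODE release 29 (GRCh38). Differences are means of log2(depth-scaled count + 0.5), shTMPRSS4 minus control, with an SE over 3 against 3 libraries. No p-value was computed, since the rows were selected on this contrast, and replicates may be technical. Depth recovery and log2 differences were tested on simulated data, the differences for genes with a mean of at least 50 counts. Sequence steps and low counts were not covered. Sequences came from GENCODE and RefSeq. Python 3.11.15 and Biopython 1.88 were used, and TMM and size factors came from edgeR 4.0.16 and DESeq2 1.42.0. All 10 members and, from each list, up to 4 genes with the lowest FDR are named. The members and lists were chosen with earlier results of these data known.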

Additional observations from a re-analysis of the deposited data

How the results depend on the processing

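Against the reported values (median log2 difference of the 9 gamma genes 1.69, PCDHAC2 -1.06, 9 gamma genes higher, 10 members without overlap), scaling over the selected genes moved most. With TMM the gamma median came to 0.51, PCDHAC2 to -2.24 and the members without overlap to 5 of 10, against 59.6% of all 753 genes. PCDHGA4 turned to -0.0474. With DESeq2 size factors the gamma median came to 0.53, PCDHAC2 to -2.23 and the members without overlap to 5 of 10, against 60% of all 753 genes. PCDHGA4 turned to -0.0282. By construction both scalings set the selected genes, most of them higher, to little average change. Taking off the lowest gamma count of each library, an alternative added after seeing the data, left a median of 1.21 over 7 genes and turned PCDHGA9 to -0.0797. Leaving out 1 library at a time gave a gamma median of 1.68 to 1.90 and a PCDHAC2 value of -1.27 to -0.94, with 9 gamma genes higher and 10 members without overlap each time. A pseudocount of 0.1 or 2, log2(FPKM + 0.01) and a mean of at least 10 counts, which all 10 members passed, moved no gamma gene by more than its spread between replicates, although the added count changed the folds of PCDHGA7 (10.03 to 37.0) and PCDHGB6 (7.15 to 21.1) by over 1.5 times. With a replicate block, as differences within replicate numbers, the means stayed at 1.69 and -1.06 by construction. The SE fell for PCDHAC2 (0.19 in place of 0.22), PCDHGB2 (0.47 in place of 0.50) and PCDHGB6 (1.41 in place of 1.52). It rose for all other gamma genes, for example for PCDHGA9 (0.82 in place of 0.63). Libraries were matched here by number alone. The deviations of same-numbered libraries correlated at 0.0320, 0.0454 and -0.0549 over 517 genes with a mean of at least 50 counts. Those of differently numbered libraries correlated at -0.111 to 0.0732. These values do not settle whether same-numbered libraries were prepared together. Low counts limit PCDHGA7 and PCDHGB6 most, with 6 and 20 counts over the 3 control libraries.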
